A study of Mus musculus with 9 samples.

Results

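The genes described here are the 10 that encode the core of mTORC1 and its 2 nearest inhibitory complexes: Mtor, Rptor, Mlst8 and Akt1s1 of the kinase complex, Tsc1, Tsc2 and Rheb of the tuberous sclerosis complex (TSC) switch, and Depdc5, Nprl2 and Nprl3 of GATOR1. They were listed by gene symbol, with no threshold on their levels, and all 10 were among the 13081 genes of the normalised count table. All 10 also passed the filter on low values, a level of 10 or more normalised counts in 4 libraries or more, which left 12667 genes for testing. The libraries came from whole kidneys of wild type C57BL/6 mice, 4 labelled young at 3 months of age and 5 labelled old at 16 months, with no other genotype or treatment named in either group. Messenger RNA was read from its 3′ end (QuantSeq). A normalised count is the number of reads assigned to a gene divided by 1 size factor per library.

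mTORC1 is the protein kinase complex through which cells match protein synthesis and growth to nutrients and growth factors. It works at the lysosomal surface, where amino acids bring it through the Rag GTPases and where the small GTPase Rheb switches it on. The TSC proteins turn Rheb off by stimulating its GTP hydrolysis, and GATOR1 turns the Rag signal off by doing the same to RagA or RagB. In the kidney the pathway is best known from tuberous sclerosis, in which loss of TSC1 or TSC2 gives renal cysts and angiomyolipomas.

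In kidneys of 16 months, Rheb and Nprl3 transcripts were lower than at 3 months and Depdc5 transcripts were higher. Rheb fell from 242 ± 24.9 to 104 ± 7.95 normalised counts (mean ± SD, n = 4 and 5), Nprl3 fell from 70.4 ± 15.3 to 18.7 ± 7.79, and Depdc5 rose from 19.5 ± 4.08 to 53.5 ± 9.98. Mlst8, Akt1s1 and Nprl2 fell by less, of which Mlst8 alone kept its call on each other scale tried, and Mtor, Rptor, Tsc1 and Tsc2 did not pass the test. By limma on log2(normalised count + 1) with Benjamini-Hochberg adjustment over all genes tested and a threshold of 0.05, 1 of the 10 genes was thus higher, 5 were lower and 4 were not called. The age difference was wide across the transcriptome, with 59.7% of all genes tested called (29.2% higher and 30.5% lower in old kidneys), so that the share of the 10 genes called lies near that of all genes. The median log2 fold change of the 10 genes was -0.28, against a median of -0.00 over all genes tested.

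Promoters are shown for Rheb and for the 3 GATOR1 genes, because these 4 include the genes with the largest changes and because the 3 subunits of GATOR1 moved in different directions. The 300 bases from 250 before to 50 after each start are from RefSeq on GRCm38.p6, 5′ to 3′ on the gene's own strand, and capitals mark any match on either strand to 4 motifs. These were the E-box core, spelled CACGTG. The CCAAT box was searched by its own letters. The GC box was spelled GGGCGG and the TATA box was spelled TATAAA. The files were made on another build, GRCm39, and the coordinates below are those of the RefSeq table.
Rheb promoter, chr5:24842312-24842611, minus strand: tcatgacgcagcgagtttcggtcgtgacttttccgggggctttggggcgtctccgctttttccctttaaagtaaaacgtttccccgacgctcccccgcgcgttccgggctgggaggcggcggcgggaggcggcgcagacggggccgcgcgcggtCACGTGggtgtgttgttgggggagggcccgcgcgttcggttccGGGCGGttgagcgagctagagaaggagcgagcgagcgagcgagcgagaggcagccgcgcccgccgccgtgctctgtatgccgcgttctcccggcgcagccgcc
Depdc5 promoter, chr5:32863471-32863770, plus strand: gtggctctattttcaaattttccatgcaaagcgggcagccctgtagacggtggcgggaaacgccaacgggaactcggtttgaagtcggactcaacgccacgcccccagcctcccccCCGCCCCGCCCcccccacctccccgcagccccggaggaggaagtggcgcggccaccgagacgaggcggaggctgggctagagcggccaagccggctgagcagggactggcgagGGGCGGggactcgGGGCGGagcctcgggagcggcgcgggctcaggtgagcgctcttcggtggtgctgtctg
Nprl2 promoter, chr9:107541959-107542258, plus strand: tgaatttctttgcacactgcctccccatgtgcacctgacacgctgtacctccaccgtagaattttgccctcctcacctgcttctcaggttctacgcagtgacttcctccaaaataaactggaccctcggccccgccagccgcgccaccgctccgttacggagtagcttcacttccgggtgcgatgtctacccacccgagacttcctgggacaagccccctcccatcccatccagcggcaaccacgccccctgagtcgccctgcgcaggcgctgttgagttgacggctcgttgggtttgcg
Nprl3 promoter, chr11:32267658-32267957, minus strand: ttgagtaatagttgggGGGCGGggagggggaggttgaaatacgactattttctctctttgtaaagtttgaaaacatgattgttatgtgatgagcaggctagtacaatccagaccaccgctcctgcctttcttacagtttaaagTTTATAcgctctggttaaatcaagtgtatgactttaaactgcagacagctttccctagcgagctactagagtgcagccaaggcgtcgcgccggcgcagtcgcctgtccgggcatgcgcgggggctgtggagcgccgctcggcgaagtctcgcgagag
The Rheb promoter was the only one of the 10 with an E-box, which 7.24% of 27025 mouse promoters of the same length hold. Depdc5 held 4 GC box matches, some of them overlapping, Nprl3 held 1 GC box and 1 TATA box, and Nprl2 held none of the 4 motifs. GC boxes stood in 5 of the 10 promoters (Mtor, Akt1s1, Rheb, Depdc5 and Nprl3) against 35.9% of all promoters, and the CCAAT box in Mtor alone, against 37.9%. The GC content of these windows was 70% for Rheb, 70.3% for Depdc5, 60.7% for Nprl2 and 52.0% for Nprl3. A match is a description of the letters in the window and says nothing about binding in these kidneys.

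Mtor encodes the kinase itself, which is shared with mTORC2. It lies at chr4:148448611-148557683 on the plus strand (GRCm38, GENCODE vM21, as for the other gene positions given here). The young libraries held 366.9, 416.8, 328.5 and 362.1 normalised counts of Mtor, and the old libraries 340.6, 322.7, 363.1, 323.7 and 375.5. The groups overlapped over most of their range. The log2 fold change was -0.09 (SE 0.10, 95% interval -0.31 to 0.12, limma adjusted p = 0.455), so that a change of the size seen for Rheb lies outside the interval. Over the 9 libraries, the genes whose centred log2 levels stayed nearest to those of Mtor were Ube2b, Stx16 and Rap2c, at root mean square differences of 0.072, 0.078 and 0.080.

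Rptor encodes raptor, the scaffold that binds mTORC1 substrates and the Rag GTPases (chr11:119602905-119899576, plus strand). Its levels were 37.7, 39.8, 42.2 and 58.8 normalised counts in young kidneys and 49.5, 54.7, 69.98, 49.4 and 73.2 in old kidneys. The fourth young library lay above 3 of the 5 old libraries, and the other young libraries lay below all of them. On the log2 scale the fold change was 0.41 (SE 0.19, interval -0.00 to 0.81, limma adjusted p = 0.0804). Without the fourth young library it was 0.54 and passed the test, with an adjusted p of 0.0324 by limma.

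Mlst8 encodes the small WD40 subunit that binds the kinase domain of mTOR in both of its complexes (chr17:24473551-24479078, minus strand). The young libraries held 58.1, 68.0, 57.8 and 58.8 normalised counts, and the old libraries 30.6, 32.8, 34.5, 56.9 and 32.9. The groups did not overlap, but the fourth old library lay within 1 normalised count of the lowest young library, while the other old libraries formed a tight group near 33. The log2 fold change was -0.71 (SE 0.20, interval -1.14 to -0.29, limma adjusted p = 0.0051).

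Akt1s1 encodes PRAS40, a raptor-binding inhibitor of mTORC1 that Akt phosphorylates (chr7:44848991-44855421, plus strand). Its levels were 90.1, 84.5, 80.4 and 97.8 normalised counts in young kidneys and 54.2, 45.9, 55.8, 85.8 and 77.4 in old kidneys. The fourth old library lay inside the young range and the fifth just under it. Its log2 fold change was -0.50 (SE 0.18, interval -0.88 to -0.11, limma adjusted p = 0.0267). This call was lost without any 1 of 4 libraries (young 1, young 4, old 1 or old 2), with limma adjusted p from 0.0572 to 0.0777.

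**Figure D1:**
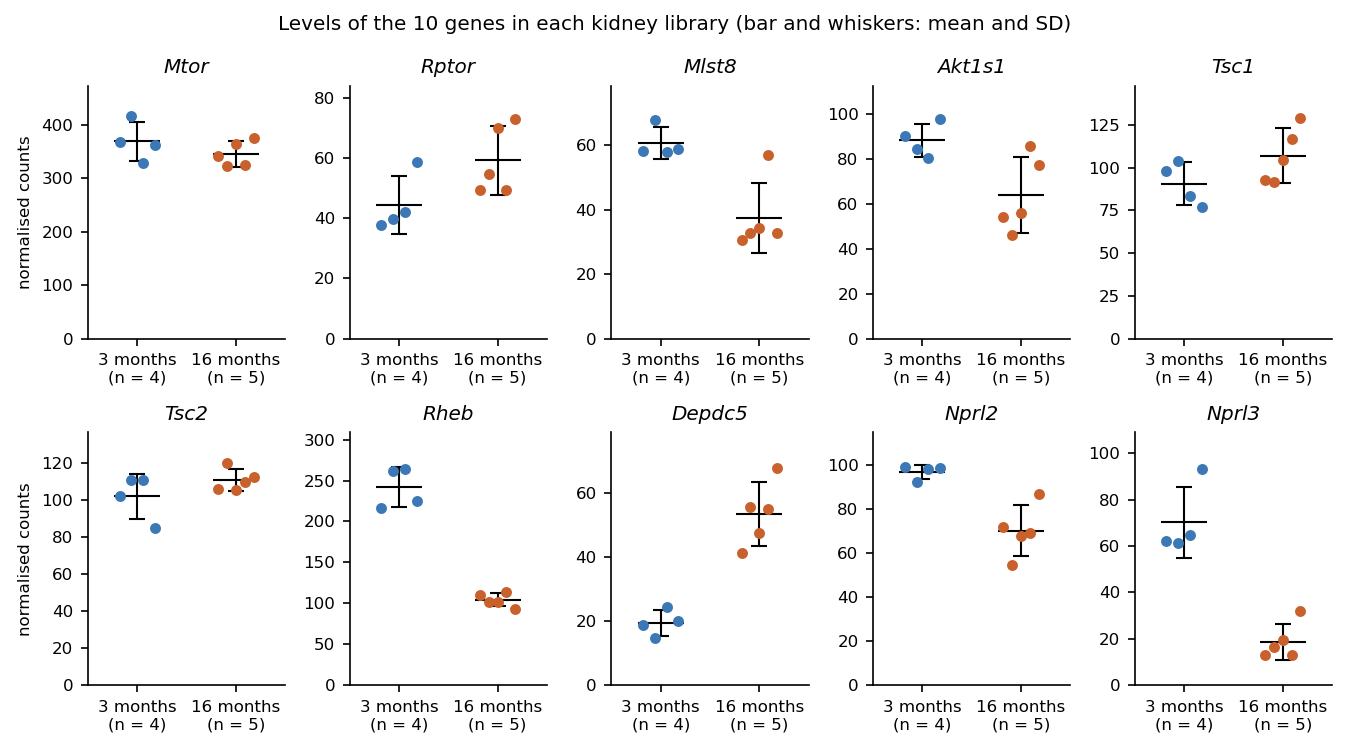
Normalised counts of each of the 10 genes (vertical axis, starting at 0) in the 4 libraries of 3 months and the 5 of 16 months; each point is a library, the long bar is the mean and the whiskers are the SD. The old and young points are fully apart for Mlst8, Rheb, Depdc5, Nprl2 and Nprl3, and they overlap for the other 5 genes.

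Tsc1 encodes hamartin, which stabilises TSC2 (chr2:28641228-28691167, plus strand). The young libraries held 98.3, 104.0, 83.3 and 77.0 normalised counts and the old libraries 93.1, 91.9, 104.5, 116.6 and 129.4. The groups overlapped, and the log2 fold change was 0.24 (SE 0.15, interval -0.08 to 0.55, limma adjusted p = 0.187). Tsc2 encodes tuberin, the GTPase-activating subunit that acts on Rheb (chr17:24595816-24632630, minus strand). Its levels were 102.4, 110.8, 110.8 and 85.1 normalised counts in young kidneys and 106.1, 120.3, 105.5, 110.1 and 112.4 in old kidneys. The old libraries varied little, with a coefficient of variation of 5.42%, and the log2 fold change was 0.12 (SE 0.13, interval -0.16 to 0.40, limma adjusted p = 0.445).

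Rheb encodes the GTPase that activates the mTORC1 kinase when it is bound to GTP (chr5:24802823-24842624, minus strand). The young libraries held 217.0, 262.3, 264.7 and 224.5 normalised counts, and the old libraries 109.6, 101.7, 101.4, 113.8 and 93.4. Every old library held less than every young one, and the spread within each group was small beside the gap. Rheb was 2.33-fold lower in old kidneys, with a log2 fold change of -1.21 (SE 0.12, interval -1.46 to -0.95, limma adjusted p = 1.09e-07). The call was kept under all 20 alternative settings. The level of Rhebl1, the Rheb-like paralog, was 64.2 ± 16.3 in young and 62.3 ± 13.95 in old ones, and its log2 difference of -0.04 did not pass the test (limma adjusted p = 0.874). In bulk kidney, fewer cells of a type that expresses a gene and less RNA of that gene per cell cannot be told apart.

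Depdc5 encodes the GATOR1 subunit that contacts the Rag GTPases (chr5:32863701-32994236, plus strand; its promoter is given above). Its levels were 18.8, 14.6, 24.5 and 19.9 normalised counts in young kidneys and 41.3, 55.8, 47.7, 55.0 and 67.9 in old kidneys. The lowest old library stood well above the highest young library. Depdc5 was 2.75-fold higher in old kidneys, with a log2 fold change of 1.42 (SE 0.22, interval 0.96 to 1.88, limma adjusted p = 2.02e-05). The young values rest on 15 to 25 reads a library and the old values on 35 to 64. The fold change was higher than that of 95.7% of all genes tested.

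Nprl2 encodes the GATOR1 subunit whose arginine finger stimulates GTP hydrolysis by RagA (chr9:107542226-107545706, plus strand). The young libraries held 99.1, 92.3, 98.0 and 98.7 normalised counts, and the old libraries 71.9, 54.7, 67.9, 69.0 and 87.0. The young libraries were nearly level, and the highest old library lay a little under the lowest of them. Its log2 fold change was -0.48 (SE 0.15, interval -0.80 to -0.16, limma adjusted p = 0.0118). This call was lost with the trend on transcript length removed (-0.17, limma adjusted p = 0.365) and with mitochondrial genes removed (-0.34, limma adjusted p = 0.0633).

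Nprl3 encodes the partner of Nprl2 in GATOR1 (chr11:32225628-32267707, minus strand). Its levels were 62.2, 61.2, 64.7 and 93.2 normalised counts in young kidneys and 12.97, 16.4, 19.3, 13.1 and 31.8 in old kidneys. The groups were far apart, although the fourth young and the fifth old library each stood above the rest of their group. Nprl3 was 3.76-fold lower in old kidneys, with a log2 fold change of -1.91 (SE 0.26, interval -2.45 to -1.37, limma adjusted p = 4.13e-06). Its old values rest on 11 to 30 reads a library, and only 3.41% of all genes tested had a lower fold change. In all, 5 of the 10 genes had old and young libraries that did not overlap, against 49.0% of all genes tested.

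Several of these genes end in sequence that a neighbour on the other strand also uses, and the reads come from that end. The last 500 bases of Nprl3 lie within the transcript of Mpg, a DNA glycosylase gene on the opposite strand, and those of Tsc2 lie within Pkd1, the polycystin-1 gene. Reads were counted by strand. Mpg was at 59.6 ± 10.6 normalised counts in old against 117 ± 13.9 in young kidneys (SD, n = 5 and 4), and Pkd1 was at 151 ± 31.7 against 118 ± 11.9. Of the last 500 bases of Mlst8, 26.8% of 50-base windows are shared with Bricd5 on the opposite strand, which was not in the table. The last 500 bases of Mtor, Rptor, Akt1s1, Tsc1, Depdc5 and Nprl2 shared no 50-base window with another gene, and those of Rheb shared at most 1.996% with any one gene. Any part of the opposite strand in these levels was not tested.

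Proportions between subunits were compared within each library, as log2 differences of normalised counts with 1 added to each, so that most of the size factor cancels and a part remains for the lowest genes. Of 7 ratios compared by an exact two-sided permutation test over all assignments of the libraries to groups of 4 and 5, 3 passed at an adjusted p of 0.0185, which rests on the smallest p this design allows (0.00794). The ratios share genes, Nprl3 among those that passed, and are not independent of each other. Rheb, Depdc5, Nprl2 and Nprl3 already separated the ages by level alone, so these p-values largely restate that separation. Depdc5 to Nprl3 went from a log2 ratio of -1.80 ± 0.357 in young to 1.53 ± 0.366 in old kidneys (SD, n = 4 and 5), a 10.04-fold shift. All 4 young libraries held more Nprl3 than Depdc5 reads, and all 5 old libraries held more Depdc5. The ratio of Nprl2 to Nprl3 rose 2.70-fold, from a log2 ratio of 0.48 ± 0.27 to 1.91 ± 0.42. The ratio of Rheb to Tsc2 fell 2.52-fold, from 1.24 ± 0.13 to -0.09 ± 0.15 on the log2 scale. With the trend on transcript length removed, the difference shrank to -0.79 for Rheb to Tsc2 and to 2.81 for Depdc5 to Nprl3 and grew to 1.65 for Nprl2 to Nprl3, each with the same adjusted p of 0.0185 by the exact permutation test.

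Within the kinase complex, the ratio of Rptor to Mtor differed by 0.50 and that of Mlst8 to Mtor by -0.62 on the log2 scale, and both had an adjusted p of 0.0556 by the exact permutation test. In each of these the groups overlapped, for Mlst8 through the fourth old library, at -2.49 against -3.47 to -3.26 in the other old libraries. With the length trend removed, the difference for Mlst8 to Mtor was -0.21 (adjusted p = 0.426 by the exact permutation test), that for Rptor to Mtor was 0.63 and passed (adjusted p = 0.0278), and that for Akt1s1 to Mtor turned to 0.30 (adjusted p = 0.322). As deposited, Akt1s1 to Mtor differed by -0.40 (adjusted p = 0.130) and Tsc1 to Tsc2 by 0.11 (adjusted p = 0.421), by the same exact permutation test. The number of reads per molecule may differ between genes, so a ratio of 1 between 2 genes is not a ratio of 1 between their transcripts, and only the change with age is read from these values.

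**Figure D2:**
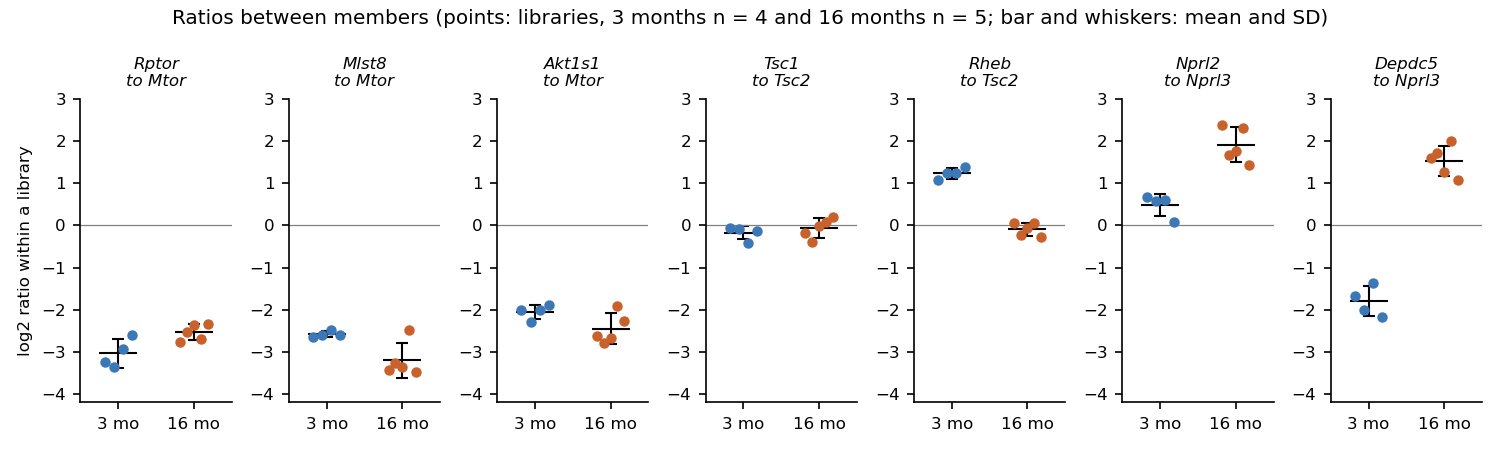
Log2 ratio between 2 of the genes within each library (vertical axis) for 7 pairs at 3 months (n = 4) and 16 months (n = 5); points are libraries, the long bar is the mean and the whiskers are the SD. Rheb to Tsc2, Nprl2 to Nprl3 and Depdc5 to Nprl3 separate the 2 ages in every library, and the other 4 pairs overlap.

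The direction of change went with transcript length among these genes. The 5 genes whose longest coding transcript exceeds 6000 bases (Mtor, Rptor, Tsc1, Tsc2 and Depdc5, 6266 to 8564 bases) had log2 fold changes from -0.09 to 1.42, with 1 called higher and 0 lower. The 5 genes of up to 4000 bases (Mlst8, Akt1s1, Rheb, Nprl2 and Nprl3, 1441 to 3855 bases) had log2 fold changes from -1.91 to -0.48, and all 5 were called lower. The same trend ran through the whole table, most clearly at its ends. Of 3306 genes of up to 2000 bases, 44.3% were lower and 18.8% higher in old kidneys. Of 1692 genes over 6000 bases, 12.1% were lower and 51.5% higher. The trend was weaker for the 4941 genes over 2000 and up to 4000 bases, the class of Mlst8 and Nprl3. There 32.3% were lower and 24.9% higher, beside 30.5% and 29.2% of all genes tested. The Spearman correlation between length and log2 fold change was 0.284 across 12455 genes, which share libraries and are not independent replicates.

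With the trend on length removed from each library, Rheb (log2 fold change -0.96), Depdc5 (0.98), Nprl3 (-1.82) and Mlst8 (-0.76) kept their calls by limma. Akt1s1 lost its call, at -0.25 (limma adjusted p = 0.258), as did Nprl2, while Mtor was called lower at -0.55 (limma adjusted p = 1.11e-04) and Tsc1 and Tsc2 moved to -0.17 each with no call. Rptor moved from 0.41 to 0.08 (limma adjusted p = 0.733). For Mtor, Rptor, Tsc1, Tsc2, Akt1s1 and Nprl2, a change with transcript length and a change with age cannot be told apart in these values.

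**Figure D3:**
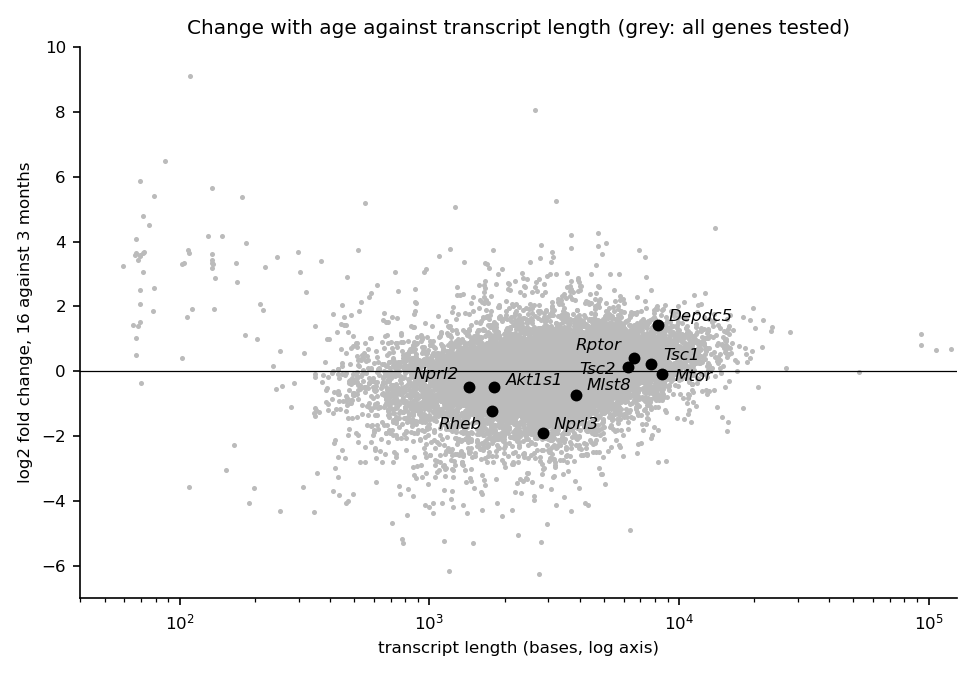
Log2 fold change of 16 against 3 months (vertical axis) against the length of the longest coding transcript in bases (horizontal log axis) for the 12455 genes with a length (grey) and the 10 genes (black, named). The 5 genes over 6000 bases lie at -0.09 or above, and the 5 of up to 4000 bases lie at -0.48 or below.

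Mitochondrial transcripts took 35.8 to 38.1% of the reads in old libraries and 27.0 to 29.7% in young ones. When they were removed and the other genes scaled to equal totals, the median log2 fold change of all genes moved from -0.00 to 0.13, and the 10 genes were split into 3 higher and 3 lower, beside 35.4% of all genes higher and 25.1% lower on that scale. On that scale Rptor (log2 fold change 0.54, limma adjusted p = 0.0255) and Tsc1 (0.38, limma adjusted p = 0.0357) joined Depdc5 as higher, Akt1s1 and Nprl2 lost their calls, and Rheb, Mlst8 and Nprl3 stayed lower. Mtor stood at 0.05, under the shift of the median gene. The calls for Rheb, Depdc5, Nprl3 and Mlst8 are thus those that hold on each of these scales.

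**Figure D4:**
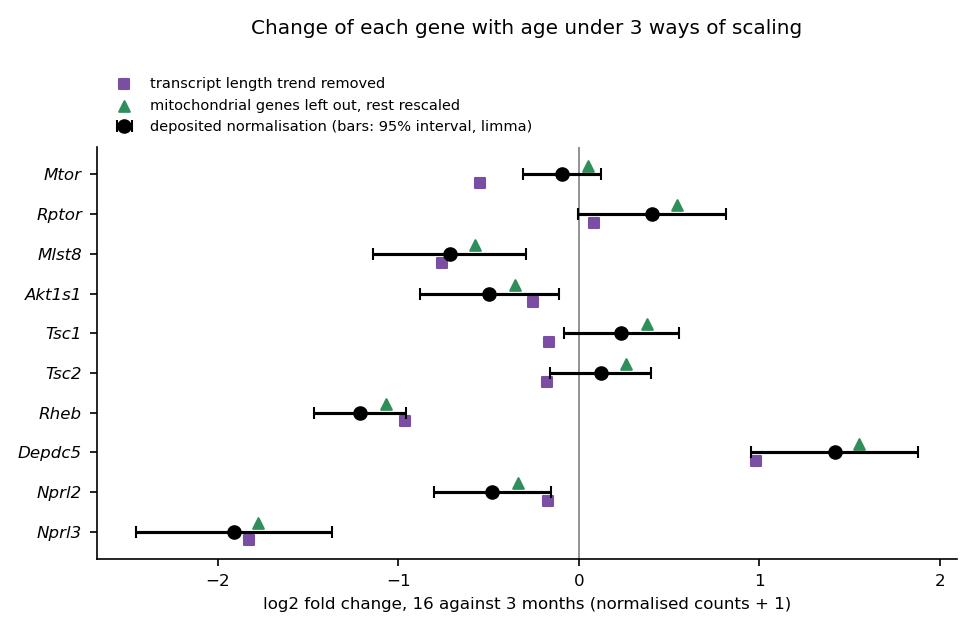
Log2 fold change of 16 against 3 months (horizontal axis) for each of the 10 genes, as deposited (black circles, with 95% intervals from limma), after removal of mitochondrial genes and rescaling (green triangles) and with the length trend removed (purple squares). Rheb, Nprl3 and Mlst8 lie below 0 and Depdc5 above 0 under all 3, while Mtor runs from -0.55 to 0.05.

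The genes that act beside these 10 in the pathway were also unequal in direction. Of 68 such genes listed, 65 were in the table and all of these passed the filter, and 16 were higher, 28 lower and 21 not called by limma, or 67.7% called against 59.7% of all genes tested. The median log2 fold change of the 65 was -0.23. The counts of each list that follow are small and stand beside 29.2% of all genes tested higher and 30.5% lower.

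GATOR2, the complex that opposes GATOR1, had 1 of 5 genes higher and 2 lower. Sec13, which also serves the COPII coat and the nuclear pore, fell from 186 ± 7.42 to 28.0 ± 10.4 normalised counts (limma adjusted p = 1.45e-08), Seh1l had a log2 fold change of -0.77 and Mios of 0.78. KICSTOR, which holds GATOR1 on the lysosome, had 1 gene higher (Kptn, 0.82 on the log2 scale) and 1 lower (Itfg2, -0.60) of 3 in the table. Among the amino acid sensors, 2 of 7 were higher and 3 lower. Sesn2, the stress-induced leucine sensor that binds GATOR2, rose 3.44-fold from 95.4 ± 20.8 to 329 ± 79.1 normalised counts (limma adjusted p = 6.19e-08), while the log2 fold change was -1.94 for the arginine sensor Castor1, -0.66 for its relative Castor2 and -1.05 for Bmt2, the S-adenosylmethionine sensor SAMTOR.

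The Rag GTPases, the Ragulator scaffold and the folliculin complex, which carry mTORC1 to the lysosome, had 1 of 11 genes higher and 5 lower. Rraga, which encodes the RagA that GATOR1 inactivates, fell 18.4-fold, from 913 ± 73.9 to 49.6 ± 21.2 normalised counts (log2 fold change -4.27, limma adjusted p = 8.12e-12). The log2 fold change was -2.11 for Flcn, whose product activates RagC and RagD, -1.19 for the Ragulator gene Lamtor3 and -0.40 for Fnip2, a folliculin partner. Of the direct partners of the 2 complexes, Deptor, an inhibitor that binds mTOR, rose 1.80-fold (limma adjusted p = 9.34e-06) and Tbc1d7, the smallest subunit of the TSC complex, had a log2 fold change of -0.95 (limma adjusted p = 0.00224).

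The subunits found only in mTORC2 had 2 of 4 genes higher and 0 lower. Rictor rose 2.36-fold, from 75.7 ± 8.70 to 178 ± 27.6 normalised counts (limma adjusted p = 8.02e-07), and Mapkap1 rose 1.66-fold. Of 3 factors that help mTOR fold and assemble, Tti1 and Tti2 were lower, with log2 fold changes of -1.23 and -0.78. The kinases and stress inputs upstream of TSC and mTORC1 had 6 of 17 genes higher and 6 lower, with Akt1 at -1.54, Gsk3b at 1.16, Prkag2, a regulatory subunit of AMPK, at 1.35 and Pdpk1 at 0.92 on the log2 fold change scale.

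Of 12 genes that encode mTORC1 substrates, 8 were lower and 2 higher. Ulk1, the autophagy kinase, fell from 386 ± 62.0 to 69.6 ± 16.4 normalised counts (limma adjusted p = 5.03e-10), Eif4ebp2, a repressor of cap-dependent translation, had a log2 fold change of -1.46, and Larp1 and Lpin1 had -0.91 and -0.75.

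**Figure D5:**
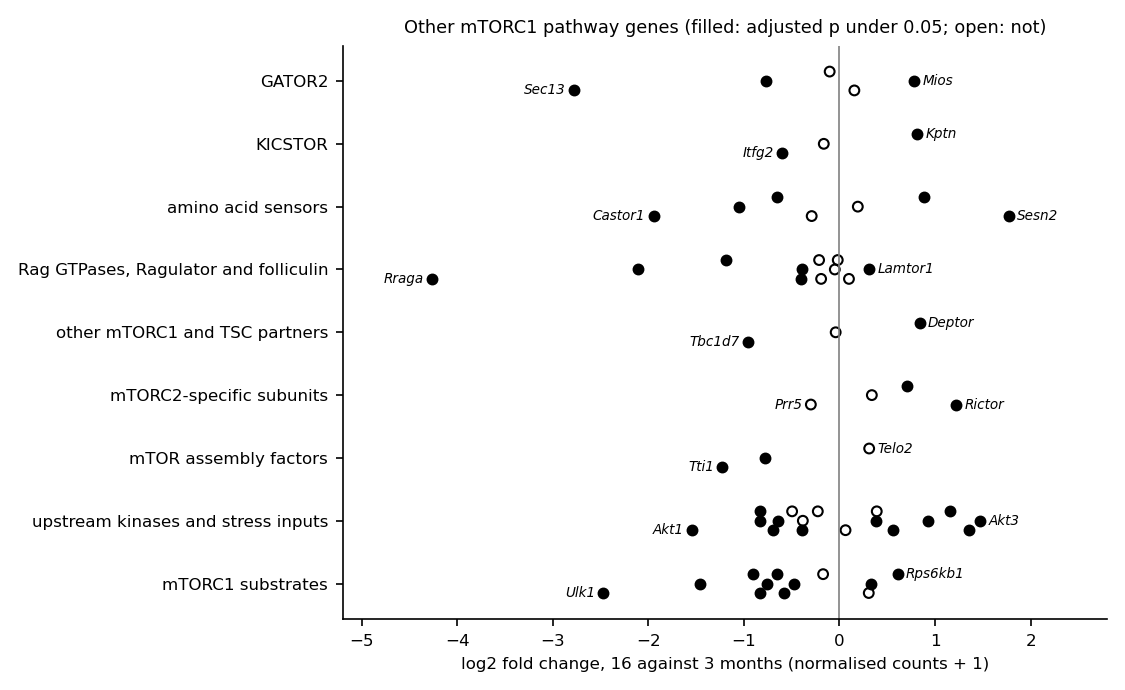
Log2 fold change of 16 against 3 months (horizontal axis) for the 65 other pathway genes in the table, by list (vertical axis); filled points had an adjusted p under 0.05 by limma, open points did not, and the lowest and highest gene of each list are named where they stand clear. Rraga lies lowest at -4.27 and Sesn2 highest at 1.77.

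The libraries held 4486406 to 6355095 reads in genes. Old library 2 was the one nearest to the young levels in 37.5% of the 7568 genes called, against 12.4 to 19.2% for the other old libraries. Markers of the proximal tubule, the main cell type of kidney, (1 of 5 higher, 3 lower) were present in every library and summed to 28183 to 29084 normalised counts in young and 25136 to 32690 in old kidneys, a sum that the most abundant of them can carry. Adipocyte markers (0 of 3 called, of which Plin1 failed the filter and was not tested) summed to 2.46 to 531 in young and 1.87 to 609 in old kidneys. Thick ascending limb markers (1 of 3 higher) summed to 7132 to 7832 in young and 8210 to 11551 in old kidneys, collecting duct markers (1 of 4 higher, 2 lower) to 1703 to 2327 and 917 to 2837, and macrophage markers (2 of 4 higher) to 351 to 436 and 372 to 572. T and B lymphocyte markers (1 of 4 in the table, which failed the filter and was not tested) lay at 0 to 4.91 and 0 to 15.3, and erythroid markers (1 of 3 lower) at 8834 to 12355 and 6471 to 13438. Endothelial markers (3 of 4 higher) summed to 905 to 999 in young and 1281 to 1375 in old kidneys, distal convoluted tubule markers (1 of 2 higher, 1 lower) to 1993 to 2703 and 3887 to 4755, podocyte markers (2 of 3 higher, 1 lower) to 467 to 506 and 352 to 421, and fibroblast and mural markers (3 of 4 lower) to 764 to 980 and 428 to 865. The part of these cell types in the changes of Rheb, Depdc5, Nprl3 and the other genes was not tested. The young and the old animals carry sample names of different series, so that any difference in when they were collected or sequenced cannot be told apart from age.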

How the data were processed

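RNA from 9 mouse kidneys (500 ng per library, mean RNA integrity number 7.5) was made into oligo dT-primed 3′ libraries, stranded in the sense direction and sequenced as single reads. Per the labels and the study's methods, the authors aligned the reads to GRCm39 with TopHat2 2.0.10 (Bowtie 1.0.0, SAMtools 0.1.19), assigned them to genes of a GENCODE annotation, strand by strand, with HTSeq 0.6.1 and normalised them with DESeq. The deposited signal is a normalised count, a read count divided by 1 size factor per library, and whole reads were recovered from it for 100% of values in every library (tolerance 0.01 of a read). Each library held 4486406 to 6355095 reads in genes, and 3 reads, the most that a count of 0 allows, are 4.72e-05% to 6.69e-05% of a library for counting error only.

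Groups follow the age labels (young, n = 4; old, n = 5). Genes that reached 10 normalised counts in 4 or more libraries entered the test on log2(normalised count + 1) with limma 3.58.1 (trend, no covariate; R 4.3.3), two-sided, with Benjamini-Hochberg adjustment over all genes tested. Fold changes on this scale understate those of low genes. The series' design text gives 4 and 5 mice, the same as the number of libraries, and p-values measure the spread between these libraries. No molecular identifiers are named for the kidney libraries, so that reads are not independent molecules. Count tests on the recovered reads (edgeR 4.0.16, DESeq2 1.42.0), other pseudocounts (0.1 and 5), filters and scalings, removal of length or GC trends by lowess, and each library left out in turn were alternatives. The scripts were tested on simulated data. The members and the lists of pathway genes and markers were chosen with earlier results of these data known. Of the pathway lists, up to 4 called genes with the largest absolute moderated statistic were named, with Rhebl1 added as the Rheb paralog and the strand neighbours Mpg, Pkd1 and Bricd5 added after their values were seen. Transcript lengths and gene positions are from GENCODE vM21 on GRCm38, and promoters from RefSeq on GRCm38.p6; 10 of 10 genes matched by symbol.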

Additional observations from a re-analysis of the deposited data

Results flagged for a closer look

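Of 34 groups of libraries examined (each gene's log2 level and each ratio, young and old apart), 6 held a library whose distance from its nearest neighbour was a large part of the group's whole range, where chance gives about 1 in 20, or 1.7 groups. The ratios are built from the same gene levels, so the groups are not independent and some flags repeat others. Mlst8 was flagged at both ages. In young kidneys, library 2 stood at 6.11 on the log2 scale against 5.88 to 5.90 in the other 3 (gap 0.895 of the range), and in old kidneys, library 4 stood at 5.86 against 4.98 to 5.15 (gap 0.811). The ratio of Mlst8 to Mtor in old library 4 followed, at -2.49 against -3.47 to -3.26 (gap 0.782). Nprl3 in young library 4 was at 6.56 against 5.96 to 6.04 (gap 0.868), and the ratio of Nprl2 to Nprl3 there was 0.08 against 0.58 to 0.66 (gap 0.866). Nprl2 in young library 2 was at 6.54 against 6.63 to 6.65 (gap 0.850), a group whose whole range is narrow. In each of these genes the age difference kept its call without the library named.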

How the results depend on the processing

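Rheb, Depdc5, Nprl3 and Mlst8 kept their direction and their call under all alternatives run on them. Requiring a mean level of 100 normalised counts left 3 of the 10 genes, with 1 called (0 higher, 1 lower), and 35 pathway genes, with 28 called, 16 of them lower, beside 72.5% of 5655 genes called. After removal of mitochondrial genes and rescaling, 3 of the 10 genes were higher and 3 lower (35.4% and 25.1% of all genes), Mtor turned to 0.050 on the log2 scale, Rptor (0.54) and Tsc1 (0.38) were called, and Akt1s1 (-0.35) and Nprl2 (-0.34) were not. With the length trend removed, Mtor was called at -0.55, Tsc1 (-0.17) and Tsc2 (-0.17) reversed, Akt1s1 (-0.25) and Nprl2 (-0.17) lost their calls, Rptor stood at 0.08 with no call, the ratio of Rptor to Mtor passed at 0.63, that of Akt1s1 to Mtor reversed to 0.30, and those of Rheb to Tsc2 and Mlst8 to Mtor shrank to -0.79 and -0.21. With the GC trend removed, 2 genes were higher (30.3% of all genes), Mtor turned to 0.0016, Rptor (0.51) was called and Akt1s1 (-0.38) was not. The causes were not tested.

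With 1 library left out, 5 to 6 of the 10 genes were called, 1 to 2 higher and 4 to 5 lower. In the same fits 54.5 to 60.2% of all genes were called, 26.6 to 29.5% higher and 27.9 to 30.7% lower. The log2 fold change ran from 0.33 to 0.54 for Rptor (called without young library 4) and from -0.61 to -0.39 for Akt1s1. Log2 ratios ran from 0.39 to 0.64 for Rptor to Mtor, -1.39 to -1.28 for Rheb to Tsc2, 1.30 to 1.56 for Nprl2 to Nprl3 and 3.20 to 3.47 for Depdc5 to Nprl3. With 4 libraries against 4 the exact permutation test cannot go below 0.0286, so the last 3 ratios then had adjusted p of 0.05 to 0.0667. edgeR called 7638 and DESeq2 7529 of all genes, against 7568 by limma. Depth limits Nprl3 in old and Depdc5 in young kidneys most, at 11 to 30 and 15 to 25 reads a library. The young and the old kidneys came from different mice, so there were no pairs to analyse.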
